A study of Mus musculus with 3 samples.

Results

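The mRNA levels of 4 inflammatory CXC chemokine genes, Cxcl2, Cxcl3, Cxcl10 and Cxcl16, and of the chemokine receptor gene Cxcr2 were followed in mouse bone marrow (BM) during treatment with LECT2, a chemotactic protein secreted mainly by the liver. These 5 genes were chosen by name out of 17250 gene names with values, and each name stood in a single row. BM cells were flushed from the femur, tibia, pelvis and humerus of C57BL/6 mice, which were 6 to 8 weeks old and, per the methods, male. The groups were 0 days of LECT2, 3 days and 5 days, with 300 μg of recombinant LECT2 per kg injected under the skin once a day in the latter pair of groups. The mice were killed hours after the last injection. RNA of 1 library per time point was sequenced. The number of mice behind each library and an injection given at 0 days are not stated in the sources used here, and the cells are called flushed BM cells in the methods but BM mononuclear cells in a legend. The libraries held 15523952, 15146983 and 15514673 reads on genes. With 1 library per time point, a difference between days cannot be separated from a difference between libraries, no p-value was computed, and the 95% intervals below cover counting error only.

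CXC chemokines are small secreted proteins that recruit leukocytes through G protein-coupled receptors. CXCL2 and CXCL3 carry the ELR motif, attract neutrophils and act through CXCR2, which in the BM draws mature neutrophils out into the blood, against the retaining pull of CXCL12 on CXCR4. CXCL10 lacks the ELR motif, is induced by interferons and attracts T and NK cells through CXCR3. CXCL16 is made as a membrane-bound protein, is cut off by the proteases ADAM10 and ADAM17, and binds CXCR6. The chemokine genes are switched on within hours by cytokines such as TNF and IL-1 or by microbial products, largely through NF-kB, and the short-lived mRNAs are destroyed by proteins such as ZFP36.

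In GENCODE M21 (GRCm38), Cxcl2 lies on the plus strand at chr5:90903871-90905938 and has 3 exons in its longest transcript. Cxcl3 lies on the same strand at chr5:90786103-90789600 with 4 exons, and its start is 117768 bases from that of Cxcl2. Cxcl10 lies in another group of CXC genes on the minus strand, at chr5:92346638-92348889, with 3 exons. Cxcl16 lies at chr11:70453983-70459984 on the minus strand with 5 exons, and Cxcr2 at chr1:74153989-74161246 on the plus strand with 2 exons. The tables carry no coordinates, so these positions describe the genes and not the reads. The longest Cxcl2 and Cxcl3 transcripts share 75 runs of 36 bases, which are 4.11% of those in Cxcl2 and 7.65% of those in Cxcl3, so a part of the reads could be assigned to either gene. Cxcl10 overlaps Art3 and Cxcl16 overlaps Zmynd15 on the opposite strand, and the library kit does not mark strand. Art3 had at most 3 reads in a library and Zmynd15 at most 6.

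The promoters are shown to describe the genes, and whether they bear on the courses of the mRNAs was not tested. The sequences are from RefSeq (GRCm38.p6), in which 4 of the 5 genes had an entry, and hold the 250 bases before the RefSeq start site, written 5′ to 3′ on the strand of the gene. RefSeq and GENCODE place some starts differently, so the last 28 bases shown for Cxcl2, 5 for Cxcr2 and 4 for Cxcl1 lie inside the GENCODE gene. Cxcl1, a close relative of Cxcl2 and Cxcl3, was added for comparison. Capitals mark matches on either strand to the kappaB core bound by NF-kB (GGG and TTCC with any 3 bases between them) and to the core of an interferon response element (GAAA and GAAA with any 2 bases between them). Their positions are chr5:90903649-90903898 (plus) for Cxcl2, chr5:90785851-90786100 (plus) for Cxcl3, chr5:90890995-90891244 (plus) for Cxcl1, chr5:92348890-92349139 (minus) for Cxcl10 and chr1:74153744-74153993 (plus) for Cxcr2.
Cxcl2: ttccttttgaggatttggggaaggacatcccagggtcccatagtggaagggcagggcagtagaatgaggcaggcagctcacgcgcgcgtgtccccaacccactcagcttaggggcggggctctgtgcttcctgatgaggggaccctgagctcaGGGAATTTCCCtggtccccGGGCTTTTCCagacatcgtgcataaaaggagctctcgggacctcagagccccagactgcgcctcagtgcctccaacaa
Cxcl3: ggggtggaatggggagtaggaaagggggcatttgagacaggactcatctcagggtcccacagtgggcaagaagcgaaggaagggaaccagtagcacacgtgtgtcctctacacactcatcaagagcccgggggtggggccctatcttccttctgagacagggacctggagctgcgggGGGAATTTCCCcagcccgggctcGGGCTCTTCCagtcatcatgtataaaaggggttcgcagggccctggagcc
Cxcl1: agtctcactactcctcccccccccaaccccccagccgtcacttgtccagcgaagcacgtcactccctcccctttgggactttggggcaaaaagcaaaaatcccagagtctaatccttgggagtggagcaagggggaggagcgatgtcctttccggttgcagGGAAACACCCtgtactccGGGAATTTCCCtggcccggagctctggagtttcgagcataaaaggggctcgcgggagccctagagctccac
Cxcl10: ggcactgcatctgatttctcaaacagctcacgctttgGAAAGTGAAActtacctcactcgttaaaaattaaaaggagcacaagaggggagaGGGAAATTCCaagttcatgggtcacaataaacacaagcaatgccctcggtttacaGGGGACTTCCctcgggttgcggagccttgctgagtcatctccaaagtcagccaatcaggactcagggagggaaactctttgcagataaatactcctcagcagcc
Cxcr2: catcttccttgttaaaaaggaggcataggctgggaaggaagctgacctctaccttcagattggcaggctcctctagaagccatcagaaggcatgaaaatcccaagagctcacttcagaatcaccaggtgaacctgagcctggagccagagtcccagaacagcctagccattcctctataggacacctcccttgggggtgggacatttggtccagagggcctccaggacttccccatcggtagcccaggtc

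Cxcl2, Cxcl3 and Cxcl1 each contained the run GGGAATTTCC within the last 100 bases before the start. This exact run was read off the promoters of Cxcl2 and Cxcl3, so its presence in both was fixed by the choice. It stood in 28 of 32851 RefSeq promoters (0.0852%), and the kappaB core, which was set beforehand, in 4.65%. The minus strand of the same stretch matched the kappaB core too, shifted by 1 base. Cxcl2 and Cxcl3 held a further kappaB match closer to the start and Cxcl1 held a further match away from it, and all 3 genes held a TATA-like ATAAAA (in 17% of promoters) after the kappaB matches. Cxcl10 held 2 kappaB matches, a motif found in 4.65% of promoters, and an interferon response element, found in 2.98%. It also held an AP-1 match, TGANTCA (6.75% of promoters), between the nearer kappaB match and the start. None of the searched letters stood in the window of Cxcr2, and each of these motifs is absent from most promoters. A match is a description of these letters and was not tested as a site.

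Cxcl2 was the most abundant CXC ligand mRNA at every time point, and its level was lower at 3 days and far lower at 5 days. It was counted with 6376, 3142 and 304 reads at 0, 3 and 5 days. Per length this gave 379 RPKM (95% interval 370 to 389), 192 (185 to 198) and 18.1 (16.1 to 20.2), where RPKM is reads per kilobase of transcript, scaled to the reads counted on all genes. The level at 3 days was 50.5% and that at 5 days 4.77% of the level at 0 days. Among genes with reads, Cxcl2 stood at percentile 98.7 before treatment, 97.8 on day 3 and 71.7 on day 5. The 3 intervals did not overlap, and in fold the larger step lay between 3 and 5 days.

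Cxcl3, which encodes a close relative of CXCL2, was scarce throughout and was not detected at 5 days. It was counted with 34, 18 and 0 reads, or 2.13 RPKM (1.47 to 2.97), 1.15 (0.684 to 1.82) and 0. The intervals at 0 and 3 days overlap. At a floor of 3 reads, or 0.188 RPKM, the level at 5 days was at least 11.3-fold lower than at 0 days and at least 6.15-fold lower than at 3 days. These bounds take the 34 and 18 reads as exact, and with their counting error included the 95% upper limits of the log2 ratio were −3.12 and −2.17. Cxcl2 had 178 times the RPKM of Cxcl3 at 0 days and 166 times at 3 days. Some or all of the 34 and 18 reads of Cxcl3 could stem from Cxcl2 through the shared runs of 36 bases. This was not tested.

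Cxcl10 followed a course close to that of Cxcl2 at a lower level. It was counted with 1835, 843 and 118 reads, or 106 RPKM (101 to 110), 49.7 (46.4 to 53.2) and 6.79 (5.62 to 8.13). The level at 3 days was 47.1% and that at 5 days 6.43% of that at 0 days, and the intervals did not overlap. Cxcl9, the other interferon-inducible ligand of CXCR3 with over 1 RPKM, stood at 2.06, 1.93 and 2.44 RPKM, with intervals that all overlap. The ratio of Cxcl10 to Cxcl9 in RPKM was thus 51.2, 25.7 and 2.78 in the 3 libraries, and without the length trend 35.7 and 4.22 in the treated ones.

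Cxcl16 was as scarce as Cxcl3 at 0 days but was still detected at 5 days. It was counted with 81, 45 and 38 reads, or 2.13 RPKM (1.69 to 2.65), 1.21 (0.885 to 1.62) and 1.00 (0.708 to 1.37). Both treated libraries lay below the library at 0 days, and the intervals of 3 and 5 days overlap. The mRNA of its receptor, Cxcr6, was as scarce, at 2.25, 0.87 and 1.23 RPKM. The sheddase genes stood higher at both treated time points, Adam10 at 32.9, 52.2 and 67.5 RPKM and Adam17 at 12.4, 18.3 and 25.3 RPKM. Their log2 ratios of 1.03 and 1.02 at 5 days passed 2-fold on the deposited scale, as did 15.5% of all genes, but not with the TMM scaling described below, where their median was 0.72, nor without the length trend (0.40).

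Cxcr2 was the exception to the early decrease. It was counted with 3016, 5184 and 1035 reads, or 63.8 RPKM (61.6 to 66.2), 112 (109 to 116) and 21.9 (20.6 to 23.3). The library of 3 days was the highest, at 176% of the level at 0 days, and that of 5 days the lowest, at 34.3%. The intervals did not overlap. Cxcl2 had 5.94 times the RPKM of Cxcr2 before treatment, 1.70 times on day 3 and 0.825 times on day 5, with the order of ligand and receptor mRNA turned in the last library. The transcripts differ in length, and once the trend of the ratios on length was taken out the values were 2.43 and 1.27 on days 3 and 5, so the turn was lost.

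**Figure D1:**
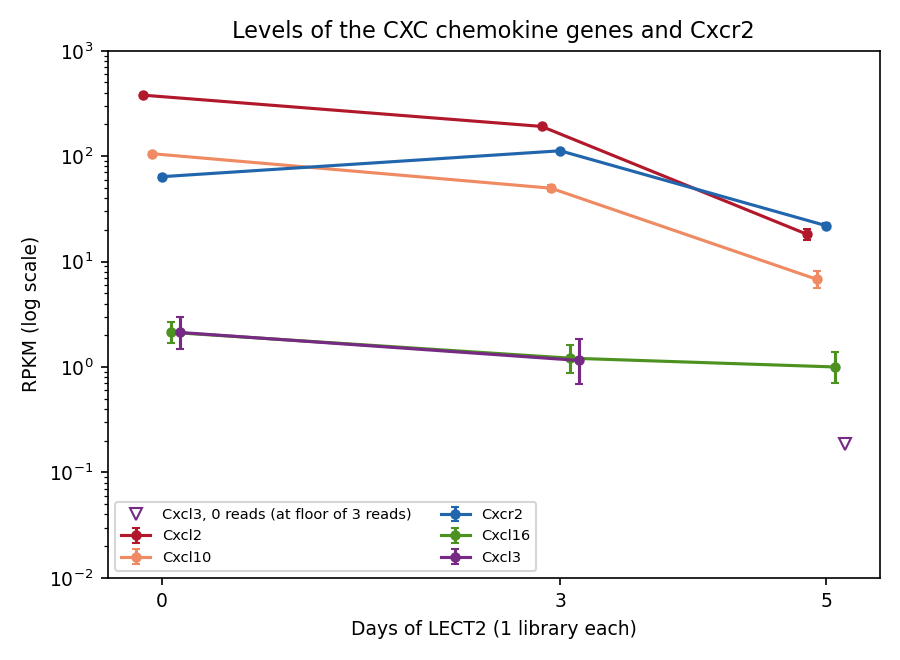
Level of each of the 5 genes in RPKM (vertical axis, log scale) against days of LECT2 (horizontal axis, points shifted slightly sideways), with 1 library per point and bars for the 95% Poisson counting interval. Cxcl2 and Cxcl10 are lower at each step, Cxcr2 is highest at 3 days with 112 RPKM, and the open triangle marks the floor of 3 reads, 0.188 RPKM, for Cxcl3 with 0 reads.

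The comparison of 3 days with 0 days asked how the genes stood early in the treatment. The log2 ratio was −1.09 (−1.21 to −0.97) for Cxcl10, −0.99 (−1.05 to −0.92) for Cxcl2, −0.83 (−1.79 to −0.02) for Cxcl3 and −0.76 (−1.37 to −0.27) for Cxcl16. For Cxcr2 it was 0.82 (0.75 to 0.88). Of the 5 genes 1, Cxcl10, was at least 2-fold lower, where 2.41% of 11325 genes were, and none was at least 2-fold higher, where 4.08% of genes were. The median of the 5 genes was −0.83, against 0.09 over all genes. These calls lie close to the threshold. With TMM scaling, which sets the libraries level over most genes, 2 of 5 genes were at least 2-fold lower (Cxcl2 at −1.07 and Cxcl10 at −1.17). On that scale 3.13% of all genes were. Log2 ratios also varied smoothly with gene length, and after this length trend was taken out none of the 5 was (Cxcl2 at −0.64, Cxcl10 at −0.76, Cxcl16 at −0.84 and Cxcl3 at −0.47), where 1.81% of all genes were. The order of the 4 ligand genes on day 3 therefore changes with this trend.

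The comparison of 5 days with 0 days asked the same late in the treatment, and used the same library at 0 days. The log2 ratio was −4.38 (−4.56 to −4.22) for Cxcl2, −3.94 (−4.24 to −3.69) for Cxcl10, −1.54 (−1.65 to −1.44) for Cxcr2 and −1.02 (−1.69 to −0.52) for Cxcl16, and that of Cxcl3 had a 95% upper limit of −3.12. All 5 genes were at least 2-fold lower, where 5.91% of 11497 genes were and 15.5% were at least 2-fold higher. The median of the 5 genes was −3.94, or −3.50 with Cxcl3 set at the floor of 3 reads, against 0.31 over all genes. Cxcl2 and Cxcl10 lay within the lowest 0.139% and 0.244% of all ratios, Cxcr2 at percentile 2.71 and Cxcl16 at 5.72. The count stayed at 5 with TMM scaling, where 9.92% of genes were at least 2-fold lower, and without the length trend, where 7.61% were. The call of Cxcl16 rests on a ratio at the threshold, and with a pseudocount of 1 it was −0.65.

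Between 3 and 5 days the log2 ratio was −3.40 (−3.58 to −3.23) for Cxcl2, −2.85 (−3.16 to −2.59) for Cxcl10 and −2.35 (−2.46 to −2.26) for Cxcr2, and that of Cxcl3 had a 95% upper limit of −2.17. For Cxcl16 it was −0.26, with an interval from −0.94 to 0.38 that includes 0. Thus 4 of 5 genes were at least 2-fold lower, where 3.45% of 11375 genes were and 1.95% were at least 2-fold higher. The count was also 4 with TMM scaling (4.83% of genes) and without the length trend (4.93%). The median of the 5 genes was −2.85, or −2.62 with Cxcl3 at that floor, against 0.25 over all genes.

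The scaling of the libraries bears on the background of all genes. The 10 most abundant genes took 12.5%, 10.4% and 5.38% of the reads at 0, 3 and 5 days. TMM scaling moved the median of all genes at 5 days from 0.31 to 0.01. The share of calls that were higher moved from 72.4% to 42.2% in the comparison of 5 with 0 days, from 62.9% to 49.8% in that of 3 with 0 days, and from 36.1% to 11.9% in that of 5 with 3 days. Without the length trend it was 39.9%, 58.8% and 11.8%. On the TMM scale the ratios at 5 days against 0 days were −4.69 for Cxcl2, −4.24 for Cxcl10, −1.84 for Cxcr2 and −1.31 for Cxcl16, and Cxcr2 at 3 days stood at 0.73. Without the length trend they were −4.20, −3.78, −1.97 and −1.33 at 5 days, and 0.64 for Cxcr2 at 3 days.

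**Figure D2:**
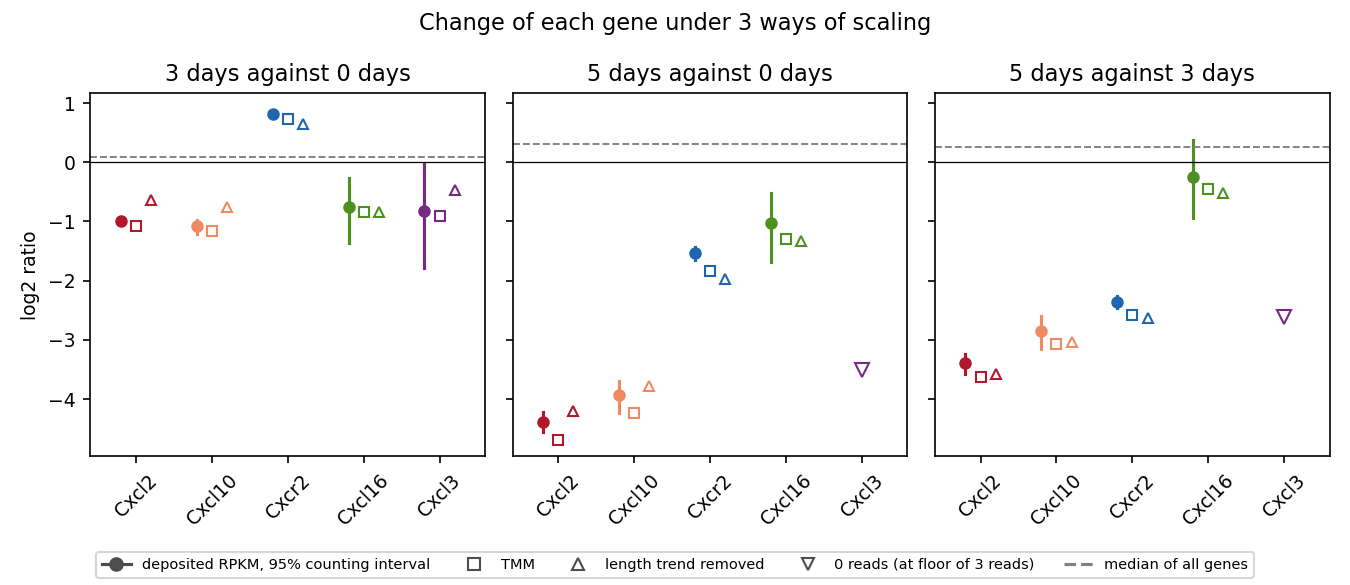
Log2 ratio (vertical axis) of each gene in the 3 comparisons, as deposited RPKM with the 95% counting interval (filled circles), with TMM scaling (squares) and with the length trend removed (upward triangles). Downward open triangles place Cxcl3, with 0 reads, at the floor of 3 reads, and the dashed line is the median of all genes. Each gene keeps its side of 0 under the 3 scalings, and the interval of Cxcl16 between 3 and 5 days, −0.94 to 0.38, crosses it.

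Of the 14 CXC ligand genes with a row, Cxcl2 and Cxcl10 took most of the mRNA at 0 and 3 days but not at 5 days. The summed level of the 14 genes was 543, 271 and 52.5 RPKM in the 3 libraries. Cxcl2 made up 69.9%, 70.6% and 34.4% of it, and Cxcl10 made up 19.4%, 18.3% and 12.9%. Cxcl3 and Cxcl16 stayed below 2% in each library. At 5 days Ppbp, a platelet chemokine gene, ranked between Cxcl2 and Cxcl10.

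Cxcl1 was the only other ligand gene among the 6 with at least 1 RPKM whose level at 5 days was under 5% of that at 0 days. Like Cxcl2 and Cxcl3 it encodes an ELR chemokine that attracts neutrophils, and it was counted with 176, 102 and 5 reads, or 11.8, 6.99 and 0.334 RPKM. Against 0 days its log2 ratio was −0.74 (−1.12 to −0.39) on day 3 and −4.77 (−6.78 to −3.89) at 5 days. Cxcl12, the ligand of CXCR4, stood at 15.9, 10.9 and 5.38 RPKM with a ratio of −1.55 (−1.72 to −1.42) at 5 days. Cxcl14 stood at 3.14, 1.43 and 0.767 RPKM. The platelet genes Pf4 and Ppbp were lowest at 3 days, at 2.15 and 4.12 RPKM, and the 5 and 0 day intervals of Ppbp overlap. In all, 3 of these 6 genes passed 2-fold downward on day 3, where 2.41% of all genes did, and 3 on day 5, where 5.91% did, and none passed it upward. With TMM scaling 4 passed it downward on day 5 (Pf4 at −1.16), where 9.92% of all genes did. Without the length trend 2 did on day 3, where 1.81% of all genes did. Cxcl5, Cxcl11, Cxcl15 and Cxcl17 had at most 6 reads in a library.

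Cxcr2 ranked second among the 8 receptor genes with a row in every library, after Cxcr4. Cxcr4 stood at 422, 371 and 274 RPKM, and its log2 ratio against 0 days was −0.19 (−0.22 to −0.15) on day 3 and −0.62 (−0.67 to −0.58) on day 5. The ratio of Cxcr2 to Cxcr4 was 0.151, 0.303 and 0.0800 in the 3 libraries, and the scaling of the libraries cancels out of it. The length trend does not, and without it the ratio was 0.254 and 0.0644 on days 3 and 5. Cxcr2 made up 12.5%, 22.5% and 6.97% of the summed receptor RPKM. Cxcr1, which encodes the other receptor of ELR chemokines, had only 8, 10 and 5 reads. Cxcr3, the receptor gene for CXCL10, stood at 4.09, 4.48 and 7.09 RPKM, so it was higher at 5 days (0.78, interval 0.44 to 1.16) while Cxcl10 was lower. Of the 5 other receptor genes with at least 1 RPKM, 1 was at least 2-fold lower at 5 days (Cxcr5, −1.03), where 5.91% of all genes were, and none was higher. With TMM scaling 2 were at least 2-fold lower (Cxcr5 at −1.33 and Cxcr6 at −1.11), where 9.92% of all genes were.

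**Figure D3:**
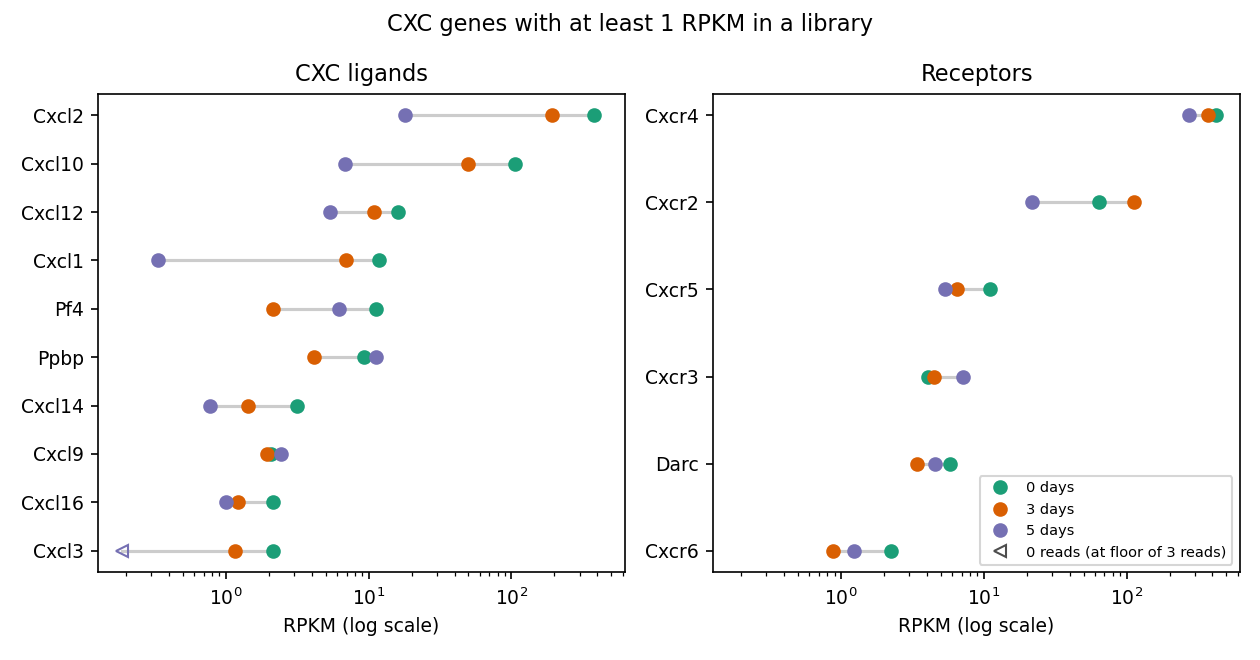
Level in RPKM (horizontal axis, log scale) of the CXC ligand genes (left) and the receptor genes (right) with at least 1 RPKM in a library, with a coloured point for each time point and an open triangle at the floor of 3 reads where a gene had 0 reads. Darc is the older symbol of the atypical receptor gene Ackr1. Cxcl2, Cxcl10, Cxcl1 and Cxcl3 span the widest ranges, and Cxcr2 is the receptor gene with the widest range.

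The genes listed here as inducing cytokines were also lower, and whether each of them induces these chemokines was not tested. On day 5 all 6 of them above the minimum of 1 RPKM had passed 2-fold downward (median −3.20, or −3.17 with Ifnb1, at 0 reads, set at the floor of 3 reads), as had 5.91% of all genes. On day 3, 3 of 6 had (median −0.87) beside 2.41% of all genes, or 1 of 6 beside 1.81% without the length trend. Il1b, which encodes interleukin-1 beta, stood at 245, 237 and 22.8 RPKM, which gave −0.05 for 3 days and −3.42 for 5 days on the log2 scale. Tnf stood at 92.0, 60.5 and 6.61 RPKM. Il6 stood at 85.5, 38.6 and 10.7 RPKM. Cxcl2 had 1.55 times the RPKM of Il1b before treatment, 0.809 times on day 3 and 0.793 times on day 5, so on day 3 Cxcl2 was lower while Il1b had nearly its starting level. The ratio of Cxcl2 to Tnf was 4.12, 3.17 and 2.74.

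Of 16 genes of the NF-kB pathway and of chemokine mRNA decay, 5 passed 2-fold downward on day 5 (5.91% of all genes did) and none upward (15.5%), with a median of −0.49. The median was −0.80 with TMM scaling and −0.81 without the length trend. Nfkbia, the NF-kB inhibitor that is itself a target of NF-kB, stood at 991, 401 and 172 RPKM. Zfp36, which encodes the decay factor, was also lower at 5 days, at 1228, 1055 and 395 RPKM, while its relative Zfp36l2 was higher, at 126, 153 and 231 RPKM. Of 19 interferon-stimulated genes, 4 were at least 2-fold lower at 5 days, beside 5.91% of all genes, and 2 at least 2-fold higher, beside 15.5%, with a median of −0.09. With TMM scaling 5 were lower, beside 9.92% of all genes, and 0 higher (median −0.39), and the same counts held without the length trend (median −0.50). The lowest ratio of the list was −1.42, above that of Cxcl10 at −3.94. Irf1 stood at 91.3, 68.3 and 42.5 RPKM, Rsad2 at 60.7, 77.6 and 27.5, and Irf9 at 44.0, 48.7 and 46.6. Of 19 genes that act after the chemokine receptors, none passed 2-fold in either direction in any comparison. Against 0 days, 4.08% of all genes passed it upward and 2.41% downward at 3 days, and 15.5% and 5.91% at 5 days. Between 3 and 5 days 1.95% and 3.45% did. Among the 19 genes, Gnai2 stood at 518, 599 and 556 RPKM, Rac2 at 515, 526 and 395, and Adrbk1 at 254, 267 and 266.

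The late neutrophil marker genes, from cells that carry CXCR2, were also lower at 5 days. Of 14 such genes above the minimum, 12 passed 2-fold downward on day 5, as did 5.91% of all genes, and the median was −2.39. On day 3 the median was −0.14, and 1 gene passed 2-fold downward (2.41% of all genes did) and 1 upward (4.08%). Without the length trend the day 3 median was 0.15, with 2 genes upward (293 of all 11325 genes were) and 0 downward (1.81%). The summed level of the 15 listed genes was 99571, 75848 and 22980 RPKM. Most of it came from S100a9 (61729, 44195 and 14032 RPKM) and S100a8 (28717, 23981 and 7789 RPKM), with Retnlg next (6507, 4839 and 419 RPKM). None of the 15 genes was at 0 reads, but Csf3r, a defining neutrophil gene, had only 25, 57 and 20 reads. For the 6 secondary granule genes the medians were −0.11 on day 3 and −1.23 on day 5, and for the 5 primary granule genes of earlier precursors −0.17 and 0.45. Without the length trend both lists were above 0 on day 3, at 0.04 and 0.21. The day 5 median of the primary granule genes was 0.14 with TMM scaling and 0.68 without the length trend. In bulk RNA, fewer cells of a type and less RNA per cell cannot be told apart.

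Relative to these markers the 5 genes differed from each other. Cxcr2 was 0.96 above the median of the late neutrophil genes at 3 days and above 13 of 14 of them, and at 5 days it was 0.86 above the median. Between 3 and 5 days it was 0.18 above, within their range. For Cxcl2 the difference from the median was −1.99 on day 5, below all 14 genes, and −0.84 on day 3, where 1 of 14 (Il1r2) was lower. For Cxcl10 it was −1.54 on day 5, with 3 of 14 genes lower than it. Cxcl16 was 1.37 above the median on day 5 and above 12 of 14. The scaling of the libraries cancels out of these differences, but the length trend does not. Without it Cxcr2 was 0.49 above the median on day 3 and 0.46 on day 5, and for Cxcl2 the difference on day 5 was −1.77. For Cxcl10 it was then −1.34 on day 5, with 1 of 14 genes lower. Cxcl16 was then 1.10 above the median on day 5 and above 10 of 14. The part of the cell composition in these differences was not tested.

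The markers of monocytes and macrophages, which also make these chemokines, were for the most part higher. Of 18 genes, 9 passed 2-fold upward and 1 downward (Cd14, −1.99) on day 5, where 15.5% of all genes passed it upward, with a median of 1.02. Of the 18 genes 14 were above 0, as were 67.3% of all genes. The complement genes C1qa, C1qb and C1qc of resident macrophages stood at −0.20, −0.05 and −0.06. With TMM scaling 6 genes passed 2-fold upward (median 0.72), as did 832 of all 11497 genes. Without the length trend 7 did (median 0.47), as did 581 of all 11497 genes. The summed level of the 18 genes was 803, 1120 and 1578 RPKM and none of the 18 was at 0 reads. Mpeg1 stood at 127, 214 and 307 RPKM, F13a1 at 72.0, 177 and 365, and Ms4a6c at 85.9, 138 and 222. Cxcl2, Cxcl3 and Cxcl10 were lower than all 18 genes in each comparison, and Cxcl16 was lower than all 18 at 3 days and lower than 17 at 5 days. For B cells, T and NK cells, erythroid cells, megakaryocytes, and endothelial and stromal cells the medians at 5 days lay between −0.36 and 0.13 (−0.67 and −0.16 with TMM scaling). For osteolineage cells the median was −1.32. The erythroid genes went both ways at 5 days, with 4 above 0 and 4 below, among the latter Hba-a1 at −1.92 and Hbb-b1 at −1.69. The summed level of the erythroid genes was 4406, 3576 and 1565 RPKM.

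**Figure D4:**
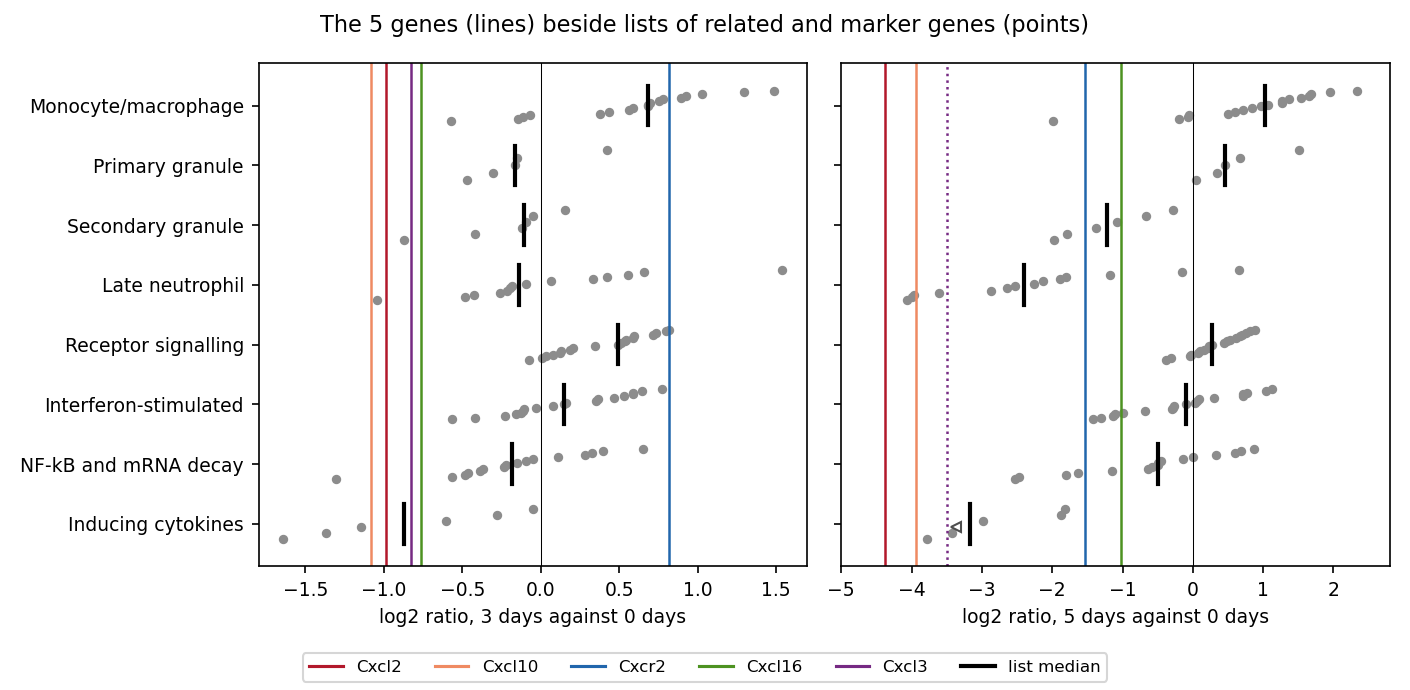
Log2 ratio (horizontal axis) of the genes with at least 1 RPKM in 8 lists (grey points, black bars for the medians) at 3 days (left) and 5 days (right) against 0 days, with the 5 genes as coloured vertical lines. The dotted line is Cxcl3 at the floor of 3 reads. At 5 days the lines of Cxcl2 and Cxcl10 lie at −4.38 and −3.94, below every inducing cytokine gene with reads and all monocyte and macrophage genes, and Cxcl2 also lies below all late neutrophil genes. The open triangle is Ifnb1, which had 0 reads on day 5, at the floor of 3 reads (−3.37).

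The genes most like each of the 5 were found by the distance between pairs of log2 ratios (3 and 5 days against 0 days) in a pool of 8192 genes whose mean reached 5 RPKM. For Cxcl2 the nearest were Il1r2 (distance 0.39), which encodes the decoy receptor of interleukin-1, Cxcl10 (0.45) and Cxcl1 (0.46). For Cxcl10 they were Il1r2 (0.07), the transcription factor gene Klf2 (0.37) and Cxcl2 (0.45). For Cxcl3 they were Cxcl2 (0.18), Cxcl1 (0.31) and Irg1 (0.38), which encodes the itaconate-producing enzyme of activated myeloid cells, with the ratio of Cxcl3 at 5 days set by the pseudocount. Cxcl3 itself was below the minimum of the pool and could not be a neighbour. Whether its likeness to Cxcl2 comes from reads shared with that gene was not tested. The nearest to Cxcr2 were Slfn4 (0.25), the collagen gene Col1a1 (0.29) and Osgin1 (0.30). Slfn4 shared its course, at 96.6, 179 and 39.2 RPKM. Cxcl16 lay in the crowd, with Cxcr5 (0.01), Rpl22l1 (0.02) and Mrpl48 (0.04) beside it. Each likeness is over 3 libraries that share the library at 0 days and is given as a description.

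**Figure D5:**
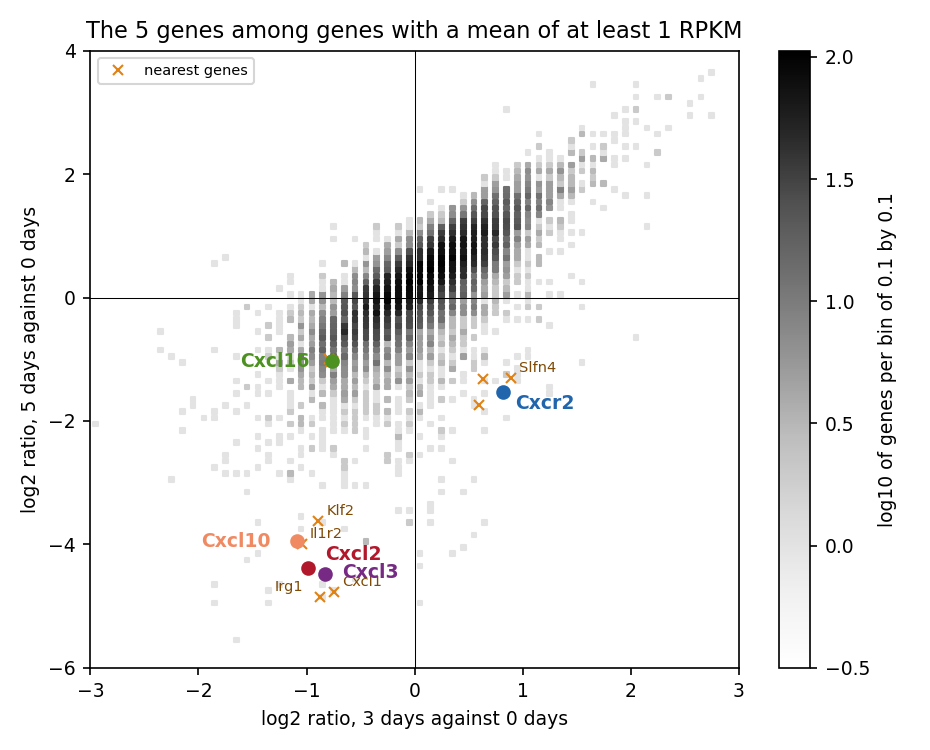
Log2 ratio at 5 days (vertical axis) against that at 3 days (horizontal axis), both against the same library at 0 days, for genes whose mean reached 1 RPKM, as grey bins by number of genes, with the 5 genes as coloured circles and their nearest genes as crosses. Cxcl2, Cxcl3 and Cxcl10 lie below the body of genes, Cxcr2 lies to the lower right at 0.82 and −1.54, and Cxcl16 lies inside the body. The position of Cxcl3 rests on a pseudocount of 0.1 RPKM.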

How the data were processed

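The values start from 3 deposited tables of pairwise comparisons. In them the authors give whole read counts per gene and the RPKM, besides their own log2 ratio, direction, P value and false discovery rate, which were not used here. The RPKM equalled the counts scaled by gene length and total within 0.1% in all but 18 rows with reads at 0 days and 14 at 3 days, each of at most 36 reads. The methods name Cufflinks for the quantitation, and the processing notes name the build mm8. The aligner is not given in the sources used here. Genes with 0 reads are listed at 0.01 RPKM and were set to 0. One read on 1000 bases was worth 0.0644 RPKM at 0 days. Gene names were matched as written, and a repeated name was read from its most abundant row.

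Changes are log2 ratios of RPKM with a pseudocount of 0.1. Intervals of 95% are exact (Clopper-Pearson for ratios of counts, Poisson for levels) and cover counting error only, since PCR copies are not independent molecules. Shifts of 2-fold or more were counted over genes that reached 1 RPKM in a library of the pair, and 3 reads were the floor. The alternatives were pseudocounts of 1 and 0.01, TMM (edgeR 4.0.16) and median-of-ratios (DESeq2 1.42.0) scaling, scaling without the 100 most abundant genes, removal of the length trend (lowess, span 0.3, statsmodels 0.14.6), the sum of all rows, no minimum or 5 RPKM, and a fold of 4. Named genes were the 5 genes, other CXC genes with at least 1 RPKM, up to 3 of the most abundant genes of each list and the 3 nearest genes. Genes outside this rule (Csf3r, Cd14, C1qa, C1qb, C1qc, Ifnb1, Art3, Zmynd15 and scarce CXC genes) were named after their values were seen. The genes and lists were chosen with earlier results of these data known. Scripts were tested on simulated data and run in Python 3.11.15 and R 4.3.3.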

Additional observations from a re-analysis of the deposited data

How the results depend on the processing

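The log2 ratios of the 5 genes kept their sign under 7 alternatives in each comparison, 105 values in all, and 26 of these lay outside the counting interval of the main value. A change of pseudocount cannot turn a sign, and the sum of all rows repeats the main value because each gene had a single row. Only the other scalings and the removal of the length trend could have turned a sign. The median of the 5 genes was negative throughout. At 5 days against 0 days it was −4.24 with TMM scaling and −1.64 with a pseudocount of 1, and between 3 and 5 days −2.31 with a pseudocount of 1, where Cxcl3 has 0 reads and its ratio follows the pseudocount. At 3 days, 2 of 5 genes were at least 2-fold lower with TMM scaling, with median-of-ratios scaling and with the reads outside the 100 most abundant genes. The number was 0 without the length trend or at a fold of 4, against 1 as reported. At 5 days, 3 were with a minimum of 5 RPKM, which leaves out Cxcl3 and Cxcl16, and 3 at a fold of 4, against 5.

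Counts over all genes moved more. At 5 days against 0 days, 680 genes were at least 2-fold lower and 1786 higher on the deposited scale, 1141 and 832 with TMM scaling, and 875 and 581 with the length trend removed. Between 3 and 5 days 222 were higher on the deposited scale, 74 with TMM scaling and 75 with the length trend removed. At 3 days the count of higher genes was 462, and 293 with the length trend removed, while a pseudocount of 1 gave 190 higher and 120 lower, against 273 lower as reported. Depth limits Cxcl3 and Cxcl16, with at most 34 and 81 reads. No paired analysis was possible because each time point has 1 library, and for the same reason no library could be left out within a time point.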

Other observations

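Genes of megakaryocytes and platelets, the source of the chemokines encoded by Pf4 and Ppbp, were lowest in the library of 3 days. The summed level of 8 such genes was 41.5, 20.5 and 39.5 RPKM at 0, 3 and 5 days. On day 3 all 7 of them that reached 1 RPKM stood below the 0 day library (median log2 ratio −0.80), as did 42.9% of all genes. On day 5 all 8 stood above day 3 (median 0.81), as did 73.2% of all genes. Pf4 itself had a ratio of −2.34 (−3.16 to −1.70) at 3 days against 0 days, on 108 and 20 reads. Without the length trend the day 3 median of the list was −0.60 and Pf4 stood at −1.79. The summed level of the T and NK cell genes was also lowest at 3 days, at 203, 125 and 177 RPKM. On day 3 all 10 of them stood below the 0 day library (median −0.66), and on day 5, 9 of 10 stood above day 3 (median 0.43). Without the length trend these medians were −0.65 and 0.18. All these genes share the library at 3 days. A difference of this library from the others in its share of platelets or of T and NK cells cannot be told apart from the treatment.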
